A study of Mus musculus with 12 samples.

Results

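Pancreatic islets of mice that carry 2 mutant copies of Wfs1 (Wfs1KO) were set against islets of mice that carry 1 mutant and 1 intact copy (Wfs1HZ), to find which transcripts differ between them. The samples were taken by their genotype labels, and they are 8 of the 12 in the series, 4 animals of each genotype, with 1 library for each animal. Of the 24078 transcripts listed, 13357 were treated as expressed because their 12 samples averaged 1 RPKM or more. RPKM are read counts scaled to transcript length and to the number of mapped reads, and all comparisons were made on log2(RPKM + 0.1). The remaining 4 samples are islets of wild-type (WT) animals, whose values are given beside the others only as levels. All animals were male hybrids of 129S6/SvEvTac and C57BL/6, 5 to 6 months old. The mutation, Wfs1tm1Koks, replaces most of exon 8 with a LacZ cassette, so that the C-terminal part of the protein is lost and a fusion of its N-terminal part with LacZ can still be made. Wfs1HZ animals therefore carry the mutant allele too, and Wfs1KO islets may still hold the truncated protein. The islets were picked by hand after collagenase digestion and kept overnight in high-glucose medium before RNA was taken, and cDNA was amplified from 10 ng of total RNA.

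WFS1 is a membrane protein of the endoplasmic reticulum (ER), abundant in the insulin-secreting beta cell, and its loss causes Wolfram syndrome, in which diabetes begins in youth. The beta cell folds large amounts of proinsulin in the ER. When unfolded protein builds up there, the sensors IRE1, ATF6 and PERK start the unfolded protein response: IRE1 (through XBP1) and ATF6 raise chaperones, ER-associated degradation (ERAD) and the secretory machinery, while PERK acts through ATF4 on amino acid and stress genes.

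Several libraries stood apart from the rest before any gene was compared. Short RNA genes, whose RPKM move in steps of 1 read, gave an estimate of the reads behind the RPKM of each library, 2190000 to 7340000 in Wfs1HZ and 3290000 to 9560000 in Wfs1KO libraries. The paper states far more reads per sample than these estimates, and the reason for the difference was not tested. At these depths 3 reads on a transcript of 2 kb are worth 0.157 RPKM in the deepest library and 0.685 RPKM in Wfs1HZ replicate 2, so that levels under such values were not measurable. Wfs1HZ replicate 2 had the fewest reads, yet 20954 transcripts were above 0 in it, the most of all libraries, and 891 of 1126 olfactory receptor genes, which islets are not expected to use, summed to 2967 RPKM against 147 to 647 RPKM in the other 11 libraries. Its median Spearman correlation with the other libraries was 0.82, the lowest, and that of Wfs1KO replicate 4 was next at 0.88. Wfs1HZ replicate 4 had the lowest median level, 4.41 RPKM, where the other 7 libraries of these genotypes lay between 5.4 and 8.98 RPKM. Islet identity was clear in all of them, with 11403 to 129574 RPKM for the summed insulin genes Ins1 and Ins2. The sum over 35 acinar genes ran from 11372 to 368286 RPKM in Wfs1HZ and from 11587 to 344460 RPKM in Wfs1KO, nearly the same range in both genotypes.

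The targeted gene itself, Wfs1 (chromosome 5, 36966104 to 36989205, minus strand, mm10), was measured at 15.03, 4.69, 16.43 and 8.16 RPKM in Wfs1HZ replicates 1 to 4 and at 5.08, 6.61, 3.46 and 2.45 RPKM in Wfs1KO replicates 1 to 4. Wfs1HZ replicate 2 lay within the range of the Wfs1KO animals, whereas the other Wfs1HZ animals lay above it, and WT animals had 24.85 to 33.94 RPKM. On the log2 scale Wfs1KO minus Wfs1HZ came to -1.24 (standard error 0.44), and the Benjamini-Hochberg adjusted p of limma was 1. An exact two-sided permutation test gave p = 0.086, where the smallest p that 4 against 4 animals allow is 0.029. Without Wfs1HZ replicate 2 the log2 fold change was -1.60.

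Across the 13357 transcripts, limma placed 0 (0%) below a false discovery rate (FDR, by Benjamini-Hochberg adjustment) of 0.05 and 3 (0.0225%) below 0.2. An unadjusted p under 0.05 was reached by 342 transcripts, of which 266 (1.99% of all) were higher and 76 (0.569%) lower in Wfs1KO. For 163 transcripts (1.22%) every Wfs1KO animal lay above every Wfs1HZ animal, and for 55 (0.412%) every Wfs1KO animal lay below. These shares are the background for the gene groups described here. Of all transcripts 8135 (60.9%) were higher in Wfs1KO, whatever the size. List counts are set beside this share, although it differed with the level of the transcripts. The fold changes were small on the whole, with a median of 0.09 on the log2 scale, a median size of 0.24 and a median standard error of 0.39. A change of more than 1 in size was found for 569 transcripts, 327 higher and 242 lower, and more than 2 in size for 77.

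**Figure D1:**
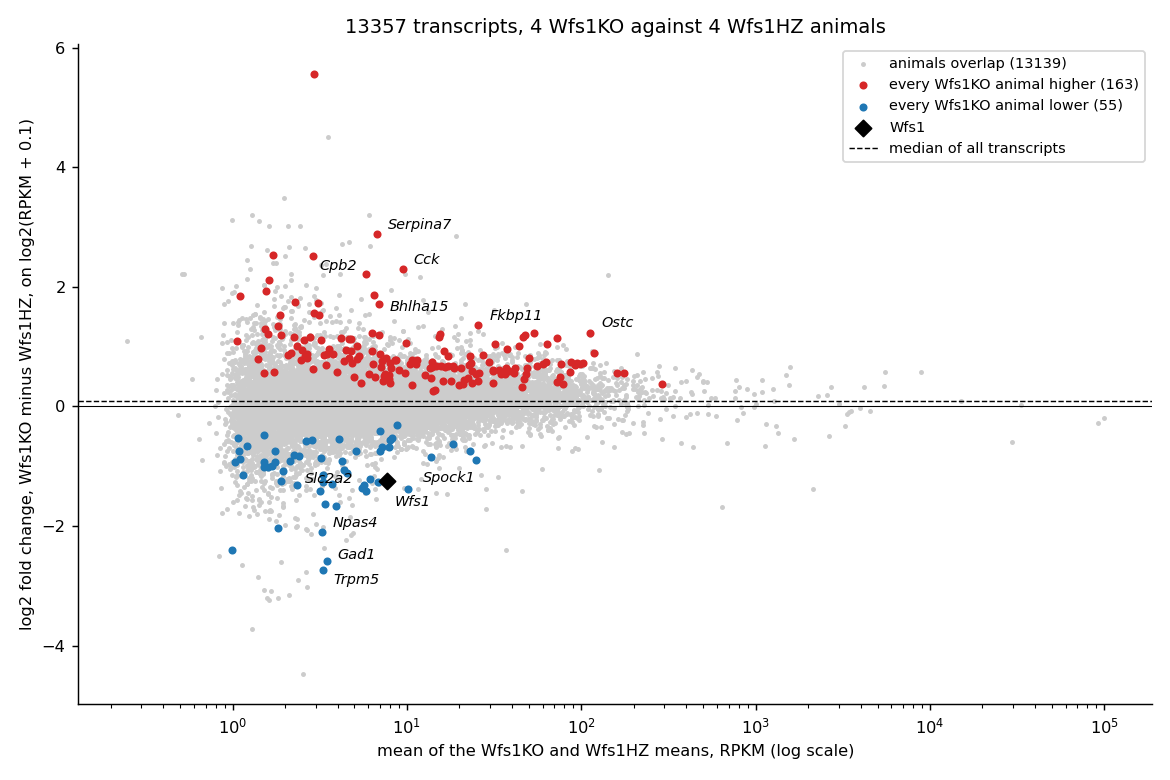
Each point is a transcript, with its mean RPKM in both genotypes on a log scale along the horizontal axis and the log2 fold change, Wfs1KO minus Wfs1HZ, on the vertical axis. Red and blue points are the 163 and 55 transcripts whose animals did not overlap, the diamond is Wfs1, and most of the blue points lie at low levels whereas red points reach past 100 RPKM.

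The balance of directions depended on the level and on the scaling. Among transcripts of 1 to 3 RPKM 48.7% were higher in Wfs1KO, with a median log2 fold change of -0.02, and among those of 30 to 100 RPKM 77.6% were higher, with a median of 0.17. This order turned without Wfs1HZ replicate 2, when the medians were 0.31 at 1 to 3 RPKM, 0.23 at 30 to 100 RPKM and 0.15 over 100 RPKM. All 36 non-overlapping transcripts of 30 to 100 RPKM, and all 6 of over 100 RPKM, were higher in Wfs1KO. With the RPKM rescaled by median of ratios the split at an unadjusted p under 0.05 was 291 higher against 238 lower, and with quantile normalization 290 against 266, in place of 266 against 76. Without Wfs1HZ replicate 2 it was 477 against 80 and the median log2 fold change was 0.23. That library also carried transcripts over the threshold: 656 of the 13357 had a mean under 1 RPKM in the other 11 samples. Without Wfs1HZ replicate 4, the library with the lowest median level, the split was 219 against 280 and the median was -0.12. The number of higher against lower transcripts thus moved with the scaling and with single libraries. Genes are described here first by whether the animals overlap, on the RPKM without rescaling, but this too depended on the scaling. Transcripts without overlap numbered 152 higher and 155 lower with median of ratios, and 167 and 187 with quantile normalization, in place of 163 and 55.

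**Figure D2:**
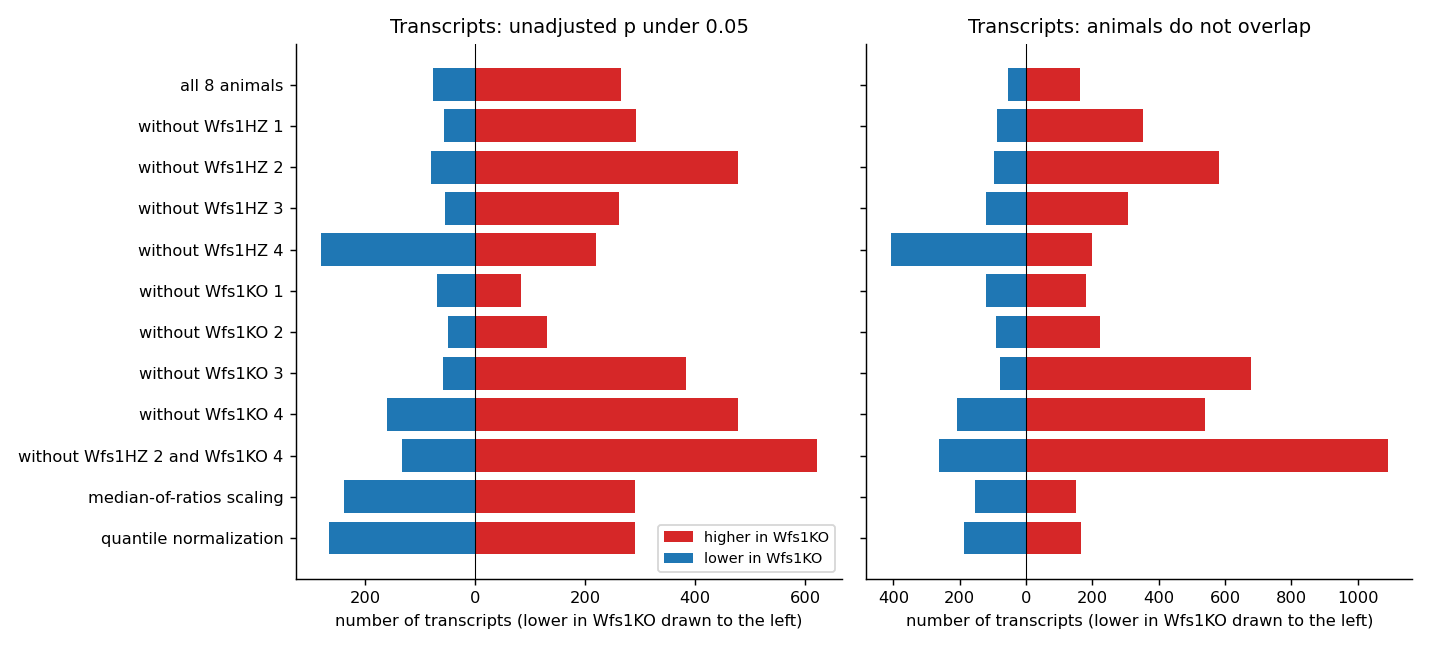
Bars give the number of transcripts higher (red, to the right) and lower (blue, to the left) in Wfs1KO with an unadjusted p under 0.05 (left panel) or with no overlap between the animals (right panel), for all 8 animals, with libraries left out, and with other scalings. Of the settings drawn, the blue bars are longest without Wfs1HZ replicate 4, with 280 and 407 transcripts, and the red bars without both Wfs1HZ replicate 2 and Wfs1KO replicate 4, with 622 and 1090; fewer animals also make it easier not to overlap.

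Trpm5, which encodes a cation channel opened by intracellular calcium, had the lowest p among the transcripts lower in Wfs1KO. Its level was 4.42, 3.83, 11.12 and 4.16 RPKM in Wfs1HZ replicates 1 to 4 and 0.76, 0.55, 0.73 and 0.83 RPKM in Wfs1KO replicates 1 to 4. The Wfs1KO animals lay close together and far below every Wfs1HZ animal, and also below the 2.57 to 5.85 RPKM of the WT animals. Its log2 fold change of -2.74 had a standard error of 0.49 and an adjusted limma p of 0.221. It stayed between -2.89 and -2.38 with any single animal left out.

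Gad1 encodes a glutamate decarboxylase that makes the transmitter GABA, which beta cells release. It was at 5.29, 2.53, 10.18 and 6.08 RPKM in the Wfs1HZ animals and at 0.93, 0.8, 1.53 and 0.37 RPKM in the Wfs1KO animals. The genotypes did not overlap, and their difference on the log2 scale was -2.58 (standard error 0.54), with an adjusted limma p of 0.738. With median-of-ratios scaling or quantile normalization they overlapped. Npas4, a transcription factor switched on by membrane depolarization and calcium entry, was at 6.06, 1.52, 13.39 and 1.63 RPKM in Wfs1HZ and at 1.23, 0.49, 0.94 and 0.74 RPKM in Wfs1KO. Here Wfs1HZ replicates 2 and 4 lay just above the highest Wfs1KO animal, and the log2 fold change was -2.10 (standard error 0.68). With median-of-ratios scaling the genotypes overlapped for Npas4.

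Other genes whose Wfs1KO animals all lay below the Wfs1HZ animals were of mixed function. Slc2a2 encodes GLUT2, the glucose transporter of the mouse beta cell, and had 5.71 to 15.63 RPKM in Wfs1HZ against 2.5 to 4.34 RPKM in Wfs1KO (log2 fold change -1.21, standard error 0.38). Dpyd, which encodes the first enzyme of pyrimidine breakdown, had 4.21 to 9.48 RPKM against 1.36 to 2.18 RPKM (log2 fold change -1.67, standard error 0.40). Spock1, a secreted proteoglycan, had 8.81 to 22.18 RPKM against 4.45 to 7.36 RPKM, and Lyve1, a hyaluronan receptor of lymphatic vessels, 6.45 to 10.67 RPKM against 2.2 to 3.96 RPKM. The log2 fold changes of Spock1 and Lyve1 were -1.38 and -1.41. Kcnj12, an inwardly rectifying potassium channel, had 1.22 to 2.41 RPKM against 0.07 to 0.55 RPKM, but the Wfs1KO values stand for only about 1.2 to 12.2 reads. Crybb3, a crystallin of the lens, and Myh14, a non-muscle myosin, had log2 fold changes of -1.63 and -1.41. Olfr444, an olfactory receptor, completes the 10 lowest with -2.04, and 11.13 RPKM in Wfs1HZ replicate 2 sets much of its value: without that library it was -1.10. Insrr, a receptor related to the insulin receptor, overlapped, with 3.11 to 21.79 RPKM in Wfs1HZ and 2.01 to 4.74 RPKM in Wfs1KO (exact two-sided permutation test, p = 0.057).

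**Figure D3:**
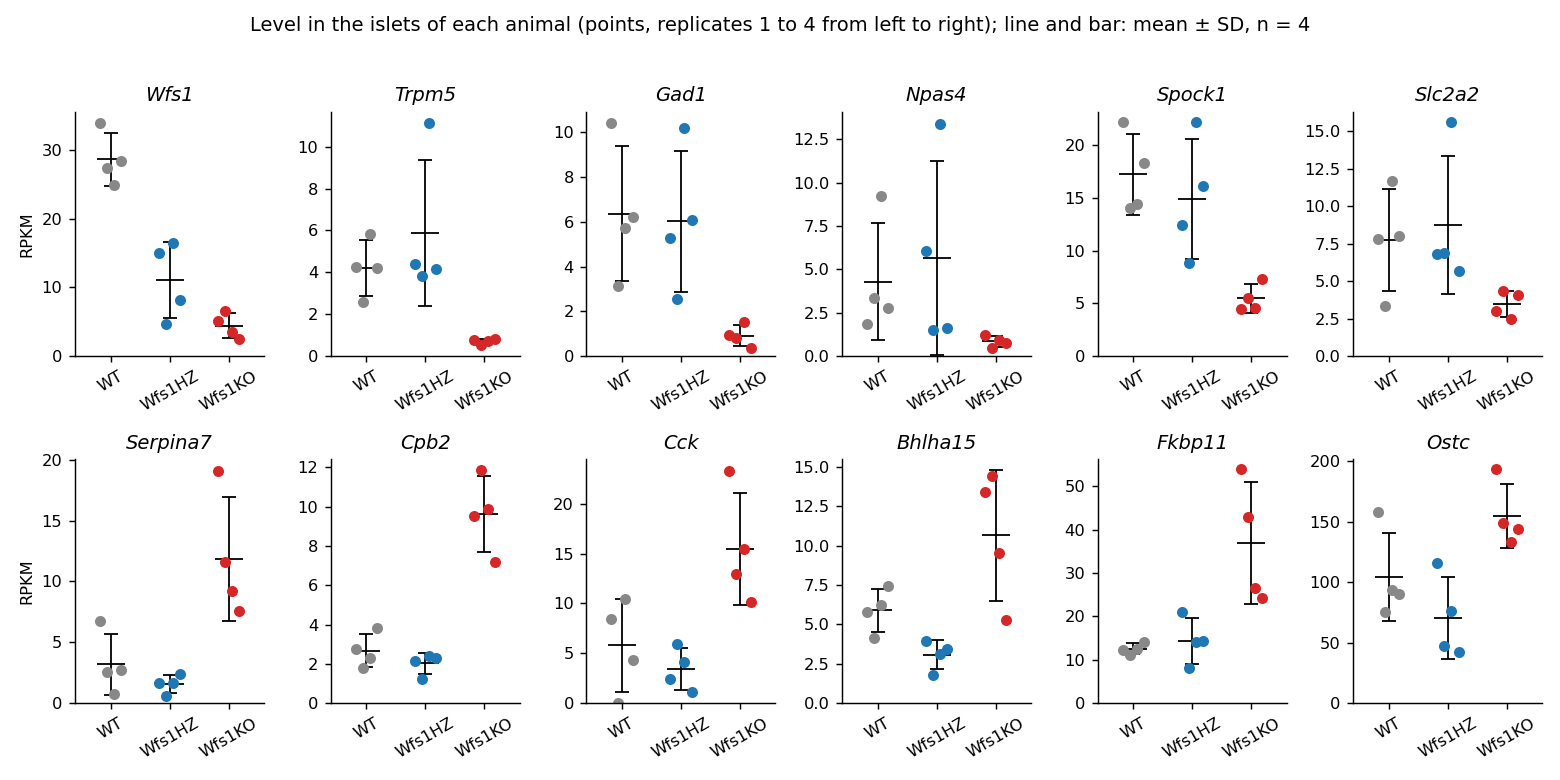
Levels in RPKM of 12 genes in each WT (grey), Wfs1HZ (blue) and Wfs1KO (red) animal, with the mean and SD of 4 animals. In all but Wfs1 the Wfs1KO points lie clear of the Wfs1HZ points, below them for Trpm5, Gad1, Npas4, Spock1 and Slc2a2 and above them in the lower row.

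On the higher side, Serpina7, which encodes the thyroxine-binding globulin, a serpin secreted into plasma, had 1.67, 0.58, 1.66 and 2.43 RPKM in Wfs1HZ and 19.1, 11.57, 9.19 and 7.54 RPKM in Wfs1KO replicates 1 to 4. Every Wfs1KO animal lay above every Wfs1HZ animal and also above the WT animals, whose highest was 6.72 RPKM. On the log2 scale the difference was 2.88 (standard error 0.46), with an adjusted limma p of 0.13. Cpb2, a carboxypeptidase that slows the breakdown of clots, had 2.17, 1.23, 2.39 and 2.29 RPKM in Wfs1HZ against 9.52, 11.88, 9.9 and 7.19 RPKM in Wfs1KO. This gap, 2.22 on the log2 scale with a standard error of 0.35 and an adjusted limma p of 0.13, was clear in every animal. The third transcript with an FDR under 0.2 was Mir684-1_dup2, a microRNA marked in the table as a copy of another locus, named because of this count. It was listed at 0 in all Wfs1HZ animals and in 2 WT animals, and at 7.38, 3.83, 1.46 and 10.74 RPKM in the Wfs1KO animals. No fold change is given against a group listed at 0, and reads shared between copies cannot be divided.

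Cck, the hormone cholecystokinin, which can protect beta cells from death, had 2.46, 5.95, 4.14 and 1.16 RPKM in Wfs1HZ and 23.29, 12.97, 15.47 and 10.13 RPKM in Wfs1KO. The genotypes were well apart, 2.30 on the log2 scale with a standard error of 0.46 and an adjusted limma p of 0.512, although WT animals ranged from a listed 0 to 10.45 RPKM. Bhlha15, which encodes MIST1, a transcription factor of secretory cells that scales up the secretory apparatus, had 3.96, 1.81, 3.12 and 3.45 RPKM against 13.43, 14.44, 9.54 and 5.26 RPKM. All Wfs1KO animals were higher, and the log2 fold change was 1.71 (standard error 0.40). With median-of-ratios scaling or quantile normalization the genotypes overlapped. Bhlha15 is also a marker of acinar cells, whose summed markers were 131013, 11372, 99924 and 368286 RPKM in Wfs1HZ and 105558, 88001, 344460 and 11587 RPKM in Wfs1KO replicates 1 to 4, and their part in the Bhlha15 values was not tested. Gnat2, a transducin subunit of cone photoreceptors, had 0.85 to 6.58 RPKM in Wfs1HZ and 7.08 to 12.82 RPKM in Wfs1KO. Lower in level but also without overlap were Arhgap36, Cmtm8, H2-DMa, March9 and Emilin1, with log2 fold changes of 2.52, 2.12, 2.53, 1.94 and 1.85. Arhgap36, H2-DMa and March9 were listed at 0 in Wfs1HZ replicate 2, and without that library their log2 fold changes were 1.52, 1.83 and 1.06. All genes named by the rule other than Serpina7, Cpb2, Trpm5, Cck and Gad1 had an adjusted p of 1 from limma.

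Genes of the ER were mostly higher in Wfs1KO. Of 26 chaperones and folding enzymes 25 were higher, with a median log2 fold change of 0.51 beside 60.9% higher and 0.09 over all transcripts. Among all transcripts of 30 to 100 RPKM 77.6% were higher, with a median of 0.17. At an unadjusted p under 0.05 stood 7 of the 26, all higher, beside 1.99% of all transcripts. The 3 that did not overlap, beside 1.22% of all transcripts, were Fkbp11, Sdf2l1 and Dnajb9. None passed an FDR of 0.05, and the exception to the direction was Ero1lb, an oxidase of the beta cell ER, with -0.46. Fkbp11, a prolyl isomerase of secretory cells, had 20.99, 8.03, 14.2 and 14.32 RPKM in Wfs1HZ and 53.91, 43.02, 26.6 and 24.31 RPKM in Wfs1KO. The Wfs1KO animals lay above all Wfs1HZ and WT animals, the latter with 11.07 to 14.21 RPKM, and the log2 fold change was 1.36 (standard error 0.35). Sdf2l1, a partner of the chaperone BiP, had 46.51, 7.76, 46.55 and 42.31 RPKM against 99.46, 86, 54.38 and 46.83 RPKM. Its lowest Wfs1KO animal and highest Wfs1HZ animals nearly met, and the log2 fold change of 1.23 was 0.60 without Wfs1HZ replicate 2. Dnajb9, a BiP co-chaperone that holds IRE1 inactive, had 59.65 to 86.78 RPKM in Wfs1HZ and 91.93 to 159.5 RPKM in Wfs1KO (log2 fold change 0.70, standard error 0.29). Hspa5, which encodes BiP itself, overlapped, with 523.48 to 1247.74 RPKM in Wfs1HZ and 1024.47 to 1661.98 RPKM in Wfs1KO and a log2 fold change of 0.44 (standard error 0.42).

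Promoter sequences were taken for these genes because chaperones are known to share response elements of the unfolded protein response. The sequences are RefSeq promoters of the build GRCm38.p6, the same assembly as mm10, from 250 bases before to 50 after an annotated transcription start. Both strands were searched for 3 elements of the unfolded protein response. These were ERSE (CCAAT followed 9 bases later by CCACG), ERSE-II (ATTGG followed 1 base later by CCACG) and the UPRE core (TGACGTG). A match is a description of letters only. Of the 21 chaperone genes with an entry, 7 held ERSE (Calr, Canx, Creld2, Dnajc3, Hsp90b1, Hspa5 and Pdia6), on 25.9% of their promoters against 0.119% of all 32851 promoters. The UPRE core was in promoters of Fkbp11, Hspa5 and Txndc5, or 11.1% against 2.01%, and ERSE-II in that of Dnajb11, or 3.7% against 0.0365%. None of the 3 members without overlap held ERSE or ERSE-II. Their promoters are shown first, Fkbp11 by the start that holds a match, followed by 2 members with ERSE that were chosen after the search. All run 5′ to 3′ on the strand of the gene, with matches to these 3 elements on either strand in capitals.
Fkbp11 (chr15:98727578-98727877, minus strand): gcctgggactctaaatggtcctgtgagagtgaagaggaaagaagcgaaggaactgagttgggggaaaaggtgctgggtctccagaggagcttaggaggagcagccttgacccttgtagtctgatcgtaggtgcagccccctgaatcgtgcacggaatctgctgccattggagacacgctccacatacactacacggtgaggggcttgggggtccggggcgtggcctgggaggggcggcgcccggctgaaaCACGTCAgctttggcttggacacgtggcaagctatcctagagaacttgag
Sdf2l1 (chr16:17132334-17132633, minus strand): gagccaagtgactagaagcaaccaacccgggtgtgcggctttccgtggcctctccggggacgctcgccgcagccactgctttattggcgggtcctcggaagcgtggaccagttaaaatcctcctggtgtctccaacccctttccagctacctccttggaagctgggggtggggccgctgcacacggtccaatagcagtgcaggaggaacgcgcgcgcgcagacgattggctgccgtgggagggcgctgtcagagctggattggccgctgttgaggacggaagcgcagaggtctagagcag
Dnajb9 (chr12:44210019-44210318, minus strand): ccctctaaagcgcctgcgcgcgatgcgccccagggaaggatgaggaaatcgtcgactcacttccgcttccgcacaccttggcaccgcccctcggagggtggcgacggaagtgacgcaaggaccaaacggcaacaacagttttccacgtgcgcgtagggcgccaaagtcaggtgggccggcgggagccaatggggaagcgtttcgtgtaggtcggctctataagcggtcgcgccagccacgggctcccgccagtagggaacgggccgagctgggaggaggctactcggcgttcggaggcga
Hspa5 (chr2:34771840-34772139, plus strand): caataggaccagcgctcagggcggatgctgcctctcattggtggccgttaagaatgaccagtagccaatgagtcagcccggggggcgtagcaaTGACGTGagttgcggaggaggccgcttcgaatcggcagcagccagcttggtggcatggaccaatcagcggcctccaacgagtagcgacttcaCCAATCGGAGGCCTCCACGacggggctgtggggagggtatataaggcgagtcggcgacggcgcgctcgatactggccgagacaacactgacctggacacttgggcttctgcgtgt
Hsp90b1 (chr10:86705395-86705694, minus strand): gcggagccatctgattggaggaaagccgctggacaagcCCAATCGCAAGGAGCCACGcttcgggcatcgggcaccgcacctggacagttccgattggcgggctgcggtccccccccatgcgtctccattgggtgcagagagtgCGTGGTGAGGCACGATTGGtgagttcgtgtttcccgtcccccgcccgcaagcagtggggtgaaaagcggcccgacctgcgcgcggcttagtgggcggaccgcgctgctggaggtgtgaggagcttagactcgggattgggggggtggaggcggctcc
Of the genes shown, Fkbp11, with a UPRE core, and Sdf2l1 and Dnajb9, with no match in these windows, did not overlap between the genotypes, and Hspa5 and Hsp90b1 overlapped, with log2 fold changes of 0.44 and 0.21. Among 13 ERAD genes with an entry Derl3 and Syvn1 held ERSE, on 14.3% of promoters against 0.119% of all. Herpud1 held ERSE-II (7.14% against 0.0365%), and Ube2j1 and Vcp held the UPRE core (14.3% against 2.01%). Among 24 targets of PERK and ATF4 none of the 3 elements was found. Among 32 translocation and export genes 3 held the UPRE core, on 8.57% of promoters against 2.01%.

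ERAD genes, which pull misfolded proteins out of the ER for destruction, were higher in 18 of 19 cases, with a median log2 fold change of 0.38. Over all transcripts these values were 60.9% and 0.09. Of the 19, 6 had an unadjusted p under 0.05, all higher, beside 1.99% of all transcripts. Edem2, a mannosidase-like protein that marks glycoproteins for removal, had 12.52, 6.52, 9.2 and 8.9 RPKM in Wfs1HZ and 30.99, 24.13, 16.26 and 13.97 RPKM in Wfs1KO. H47, now called Selenos, a selenoprotein of the retrotranslocation complex, had 65.29, 28.55, 54.77 and 35.3 RPKM against 121.86, 125.31, 83.89 and 68.04 RPKM. Sel1l, the scaffold of the HRD1 ubiquitin ligase, had 31.33 to 40.24 RPKM against 49.64 to 82.42 RPKM. In all of these the genotypes did not overlap, and the log2 fold changes were 1.16, 1.15 and 0.81 (standard errors 0.33, 0.33 and 0.26). Derl3 was higher by 1.15 but overlapped, with Wfs1KO replicate 4 at 17.88 RPKM below Wfs1HZ replicate 3 at 18.74 RPKM.

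The machinery that carries proteins into the ER, glycosylates them and exports them in COPII vesicles was higher in 41 of 41 genes, with a median log2 fold change of 0.52 and a range of 0.12 to 1.24. Over all transcripts 60.9% were higher, with a median of 0.09. Of the 41, 12 had an unadjusted p under 0.05 and 7 did not overlap: Ostc, Tmed3, Ssr3, Dad1, Kdelr2, Sec11a and Kdelr3. The shares of all transcripts that were higher in these ways were 1.99% and 1.22%. Among all transcripts of 30 to 100 RPKM they were 63 and 36 of 1351. Ostc, a subunit of the oligosaccharyltransferase, had 116.04, 47.33, 76.37 and 42.52 RPKM in Wfs1HZ and 193.7, 148.58, 133.45 and 143.6 RPKM in Wfs1KO, and the difference was 1.24 on the log2 scale (standard error 0.33). Its WT range, 75.66 to 158.06 RPKM, reached into that of the Wfs1KO animals. Tmed3, a cargo receptor, had 25.61 to 55.88 RPKM against 67.18 to 125.97 RPKM, and Ssr3, a subunit of the translocon-associated complex, 54.39 to 94.31 RPKM against 108.01 to 200.54 RPKM. Dad1, another oligosaccharyltransferase subunit, had 20.19 to 23.68 RPKM in Wfs1HZ, a narrow range, and 25.31 to 49.68 RPKM in Wfs1KO.

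Targets of PERK and ATF4 were closer to the background. Of 30 members 26 were higher, with a median log2 fold change of 0.20, beside 60.9% and 0.09 over all transcripts. Only Bcat1 and Slc7a3 had an unadjusted p under 0.05 or did not overlap. Bcat1, the cytosolic transaminase of branched-chain amino acids, had 1.39, 1.56, 0.85 and 0.44 RPKM in Wfs1HZ and 4.55, 3.94, 2.7 and 2.94 RPKM in Wfs1KO (log2 fold change 1.74). Slc7a3, a transporter of cationic amino acids, had 1.53 to 5.79 RPKM against 6.25 to 11.2 RPKM. Atf4 and Ddit3 (CHOP) themselves overlapped, with log2 fold changes of 0.22 and 0.24 (standard errors 0.27 and 0.29).

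Taken by animal, the ER lists were highest in Wfs1KO replicates 1 and 2. The mean log2(RPKM + 0.1) of the chaperone list was 6.16, 5.43, 6.11 and 5.43 in Wfs1HZ replicates 1 to 4 and 6.61, 6.57, 6.12 and 5.95 in Wfs1KO replicates 1 to 4, so the groups overlapped through Wfs1KO replicates 3 and 4. For the ERAD list the lowest Wfs1KO animal, at 4.60, lay just above the highest Wfs1HZ animal, at 4.55. The translocation and export list overlapped, with Wfs1KO replicate 3 at 5.37 and Wfs1HZ replicate 1 at 5.40. Its level in WT replicate 1, 5.66, was above Wfs1KO replicates 3 and 4, at 5.37 and 5.43. The levels depended on the scaling: with median of ratios the medians of the chaperone, ERAD and translocation lists were 0.45, 0.31 and 0.45 beside 0.03 over all transcripts. Of their members 24 of 26, 16 of 19 and 41 of 41 were then higher, and the number without overlap went from 3 to 0, from 3 to 2 and from 7 to 2. Leaving out Wfs1HZ replicate 2 and rescaling at once left medians of 0.20, 0.17 and 0.20 beside -0.01, with 22, 12 and 36 members higher. Leaving out Wfs1HZ replicate 4 alone gave 0.39, 0.23 and 0.42 beside -0.12.

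**Figure D4:**
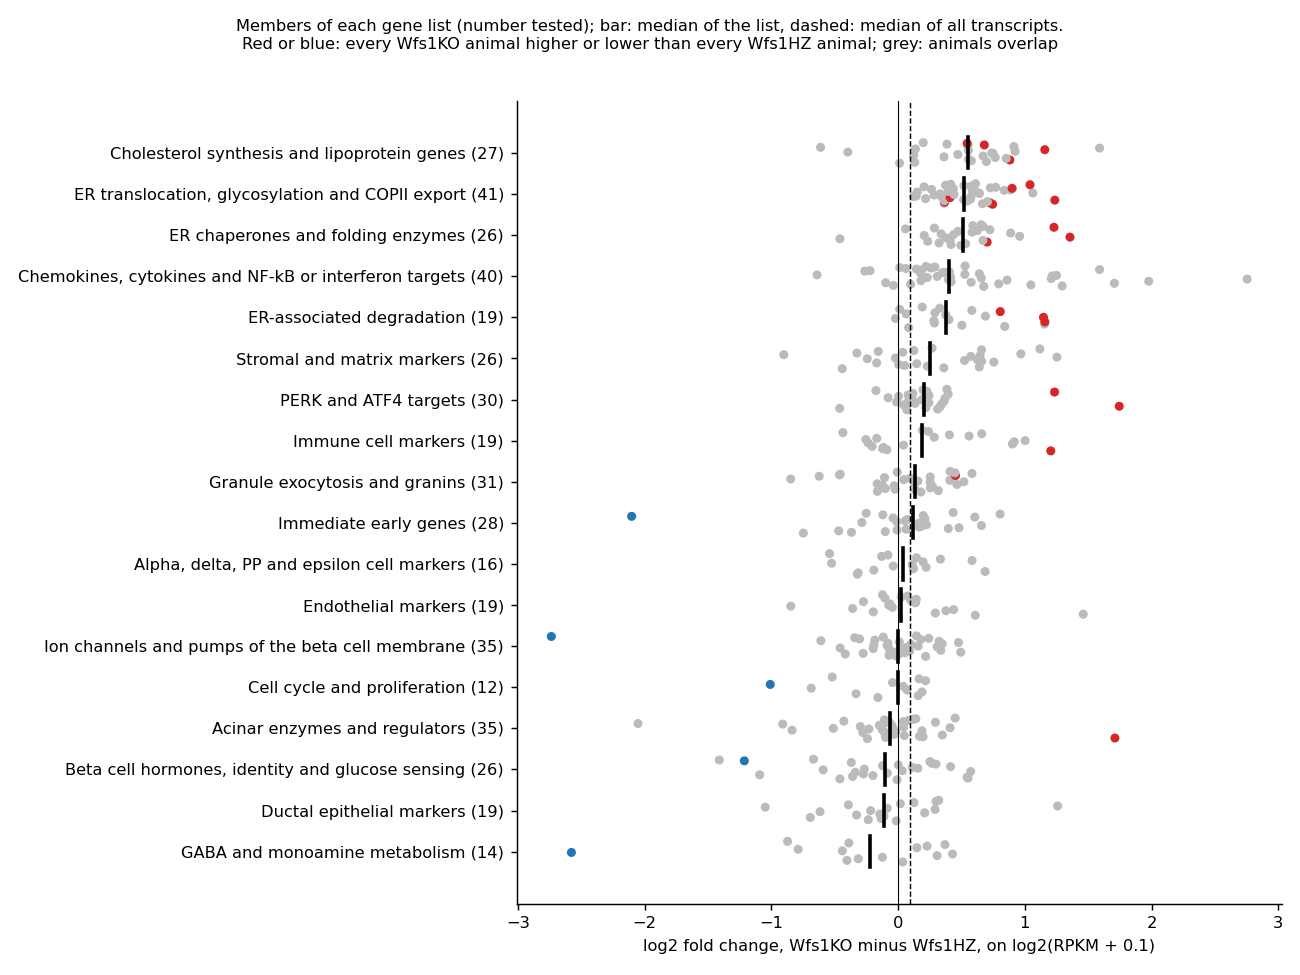
Points are the log2 fold changes, Wfs1KO minus Wfs1HZ, of the members of 18 gene lists, with the median of each list as a bar and the median of all transcripts, 0.09, as a dashed line. The lists at the top, cholesterol synthesis and the ER lists among them, lie mostly to the right of the dashed line, while single blue points far to the left are Trpm5, Gad1 and Npas4.

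Cholesterol synthesis and lipoprotein genes were also higher as a group, 25 of 27, with a median log2 fold change of 0.55, beside 60.9% and 0.09 over all transcripts. An unadjusted p under 0.05 was found for 9, all higher, and 4 did not overlap. The shares of all transcripts that were higher in these ways were 1.99% and 1.22%. Among the 4 without overlap were Mvk and Sqle, enzymes of the pathway, and Srebf2, the transcription factor that drives it. The Srebf2 animals nearly met, with 14.7 to 22.31 RPKM in Wfs1HZ and 22.38 to 39.26 RPKM in Wfs1KO. Its log2 fold change was 0.55 (standard error 0.28), with an unadjusted limma p of 0.070. Sqle, squalene epoxidase, had 36.87, 35.6, 48.31 and 49.52 RPKM in Wfs1HZ and 91.14, 79.91, 52.44 and 54.41 RPKM in Wfs1KO. Wfs1KO replicates 3 and 4 stood only slightly above the Wfs1HZ animals, and the log2 fold change was 0.68 (standard error 0.28). Mvk, mevalonate kinase, had 0.96 to 1.7 RPKM against 2.01 to 4.02 RPKM. Members at the other end were Lpl with -0.40 and Pmvk with -0.61. By animal the list was highest in Wfs1KO replicates 1 and 2, with means of 4.40 and 4.18 on the log2 scale, and 3.17 to 3.69 in Wfs1HZ. Wfs1KO replicates 3 and 4, at 3.60 and 3.68, lay within the Wfs1HZ range and below WT replicate 1, at 3.92. After median-of-ratios scaling 24 of 27 were higher with a median of 0.49, and 1 member was without overlap. Promoters were also searched for a sterol regulatory element (TCAC followed 1 base later by CCAC). Of 17 genes of this list with an entry 1 held it, Hmgcs1, on 4.17% of their promoters against 1.24% of all. Hsp90b1 and Sec24d of the ER lists held it too.

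Chemokines, cytokines and targets of NF-kB or interferon were higher in 35 of 40 cases, with a median log2 fold change of 0.40. Over all transcripts these values were 60.9% and 0.09. Yet 0 of 40 were free of overlap, and 4 had an unadjusted p under 0.05, all higher, beside 1.99% of all transcripts. Wfs1KO replicate 4 stood apart from the other animals of its genotype. The mean log2 level of the list was 3.34 to 4.35 in Wfs1HZ, 5.0 to 5.14 in Wfs1KO replicates 1 to 3 and 2.35 in Wfs1KO replicate 4. Cxcl9, a chemokine induced by interferon gamma, had 0.31 to 1.16 RPKM in Wfs1HZ and 15.42, 7.44, 10.46 and 0.62 RPKM in Wfs1KO replicates 1 to 4. Csf3, the granulocyte growth factor, had 3.92 to 16.65 RPKM against 36.21, 27.52, 55.02 and 12.18 RPKM. In both, replicate 4 lay within the Wfs1HZ range and the other Wfs1KO animals above it. Sprr1a, a cornified envelope protein that stressed cells induce, showed the same split with 14.89 to 63.79 RPKM in Wfs1HZ and 311.32, 376.69, 225.65 and 41.61 RPKM in Wfs1KO.

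Without Wfs1KO replicate 4, 37 of the 40 were higher and 20 did not overlap, beside 541 of 13357 transcripts (4.05%) that were higher without overlap in the same setting, and the median of the list was 1.22. In that setting 8 transcripts had an FDR under 0.05 by limma: Cxcl9, Cxcl3, Mmp3, Cyp1a1, Sprr1a, Serpina7, Gbp2 and Cpb2, all higher. Cxcl3, Mmp3 and Cyp1a1, which were named after their values were seen, encode a chemokine, a matrix protease and a drug-metabolizing enzyme. Cxcl3 had 3.58 to 11.08 RPKM in Wfs1HZ, 39.11 to 52.21 RPKM in Wfs1KO replicates 1 to 3 and 0.3 RPKM in replicate 4. Mmp3 and Cyp1a1 were at 0.67 and 0.43 RPKM in that library and at no less than 36.98 and 15.17 RPKM in the other Wfs1KO animals. Wfs1KO replicate 4 also had the lowest acinar sum and the lowest immune marker sum of its genotype, 11587 and 101 RPKM against 88001 to 344460 and 288 to 377 RPKM, and the highest Gcg. The part of these differences in the chemokine values was not tested. With all Wfs1KO animals kept but Wfs1HZ replicate 2 left out, 28 of the 40 list members (70%) were higher with a median of 0.19, beside 75.0% and 0.23 over all transcripts. With median-of-ratios scaling in addition, 18 of the 40 (45%) were higher with a median of -0.06, beside 48.7% and -0.01.

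**Figure D5:**
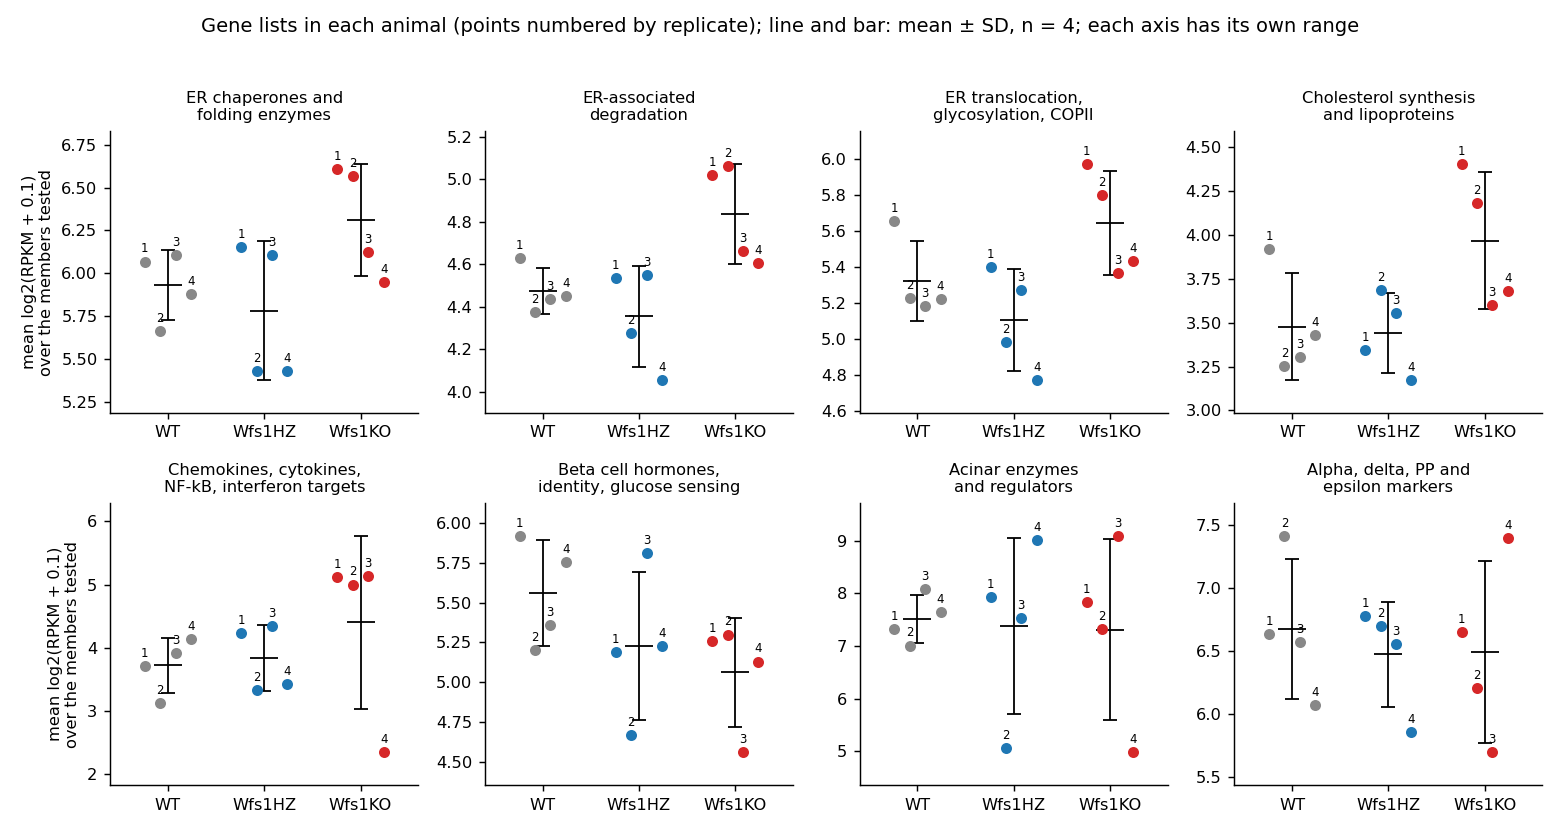
Mean log2(RPKM + 0.1) over the members of 8 gene lists in each animal, numbered by replicate, with the mean and SD of 4 animals. The ER and cholesterol lists are highest in Wfs1KO replicates 1 and 2, the chemokine list is at 2.35 in Wfs1KO replicate 4 and at 5.0 to 5.14 in the other Wfs1KO animals, and the acinar list spans the widest range within both Wfs1HZ and Wfs1KO.

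The hormones and identity genes of the beta cell were divided in direction. Of 26 members 11 were higher (42.3%, beside 60.9% of all transcripts) and 15 lower. The median log2 fold change was -0.10 beside 0.09. With median-of-ratios scaling 9 were higher, the median was -0.17 beside 0.03, and 2 were lower without overlap. The mean log2 level of the list was 4.67 in Wfs1HZ replicate 2, 5.19 to 5.81 in the other Wfs1HZ animals and 4.56 to 5.30 in Wfs1KO. Wfs1HZ replicate 2 thus lowered the level of its group. Ins1 was at 18885, 4981, 51888 and 70521 RPKM in Wfs1HZ and at 48928, 42367, 18520 and 9816 RPKM in Wfs1KO, a wide spread within each genotype (log2 fold change 0.03, standard error 1.23). Ins2 had a log2 fold change of -0.59 (standard error 1.16), and -1.29 to -0.15 with single animals left out. Gcg had -0.19, Sst -0.08 and Ppy 0.58, and the animals overlapped in each of these hormones. In islets as a whole, fewer cells of a type and less RNA per cell cannot be told apart. Beside Slc2a2 the other member with an unadjusted p under 0.05 was Slc30a8, the zinc transporter of the insulin granule. It had 48.34, 47.3, 133.95 and 33.78 RPKM in Wfs1HZ and 13.33, 17.31, 16.44 and 53.89 RPKM in Wfs1KO, so Wfs1KO replicate 4 alone overlapped (log2 fold change -1.41, standard error 0.47). The beta cell transcription factors Pdx1, Nkx6-1 and Neurod1 had log2 fold changes of 0.27, 0.41 and 0.16. Markers of the alpha, delta, PP and epsilon cells divided evenly, 8 higher and 8 lower, none with an unadjusted p under 0.05, although without Wfs1HZ replicate 4 only 4 of 16 were higher, with a median of -0.22. In this list Gc, a marker of alpha cells, had the lowest p, with a log2 fold change of 0.69.

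Secretion and excitability genes stayed near the background apart from the genes already named. Among 31 genes of granule exocytosis 18 were higher and the median log2 fold change was 0.13, and the one without overlap was Syt7, a calcium sensor of exocytosis, with 36.12 to 45.29 RPKM in Wfs1HZ and 46.98 to 62.72 RPKM in Wfs1KO. Its log2 fold change was 0.45 (standard error 0.24), with an unadjusted limma p of 0.083. With median-of-ratios scaling 0 members were higher without overlap and 2 were lower, and with quantile normalization 0 and 1. Stx1a, a syntaxin of the fusion complex, had -0.85 and overlapped. Of 35 ion channels and pumps 18 were higher and 17 lower, with a median of 0.00. Trpm5 was the one member there with an unadjusted p under 0.05. At the other end was Cacna1c, a calcium channel subunit, with 0.49, and Trpm4, a close relative of Trpm5, had -0.12. Of 14 genes of GABA and monoamine metabolism 8 were lower, with a median of -0.22, and after Gad1 the next lowest p belonged to Maob, a monoamine oxidase, with -0.79 (exact two-sided permutation test, p = 0.17). Among 28 immediate early genes the median was 0.12, and Npas4 was the one with an unadjusted p under 0.05. Fosl1, an AP-1 subunit, was next with 0.66. Fos, Egr1 and Nr4a1, which also respond to activity, had log2 fold changes of 0.17, 0.40 and 0.20, and Arc had -0.75.

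Counts for markers of the other cells in the preparations moved with single libraries. Of 35 acinar genes 21 were lower and 14 higher, with a median of -0.06, but without Wfs1HZ replicate 2 only 2 of 35 were higher, with a median of -0.89, and without Wfs1HZ replicate 4 32 of 35, with a median of 0.53. Bhlha15, described above, was the sole member without overlap, and Ptf1a, the acinar transcription factor, had -2.05 with overlap (0.11 to 3.75 RPKM in Wfs1KO and 1.5 to 6.2 RPKM in Wfs1HZ). The ductal list had a median of -0.11, with Lgals3 at 1.26 and Krt8 at -1.05 as the members with an unadjusted p under 0.05. Stromal markers had a median of 0.25, 0.91 when Wfs1HZ replicate 2 was left out and -0.29, with 5 of 26 higher, when replicate 4 was. Wfs1HZ replicate 2 held 1238 RPKM of summed stromal markers, where the other Wfs1HZ animals had 120 to 376 RPKM and the Wfs1KO animals 318 to 637 RPKM. The stromal members with the lowest p, Lum and Pdgfrb, had 1.25 and -0.90. Leaving out Wfs1HZ replicate 4 gave 0.44 for Lum, and leaving out Wfs1HZ replicate 2 gave 2.13 for Lum and -0.51 for Pdgfrb. Endothelial markers had a median of 0.03, and leaving out Wfs1HZ replicate 2 or 4 gave 0.26 or -0.36. Esm1 had -0.85, and -1.55 without Wfs1HZ replicate 4, and Cdh5 had 0.61, which was 0.14 without that library and 1.00 without Wfs1HZ replicate 1. Immune markers had a median of 0.19, and 0.45 or -0.06 when Wfs1HZ replicate 2 or 4 was left out, with C1qa, a complement subunit of macrophages, as the sole member without overlap (0.42 to 1.25 RPKM in Wfs1HZ and 1.34 to 3.9 RPKM in Wfs1KO), on about 1 to 21 reads a library. The 12 cell cycle genes measured divided evenly, and Mcm5, a subunit of the replication helicase, was lower without overlap, with 1.5 to 3.59 RPKM in Wfs1HZ and 0.83 to 1.24 RPKM in Wfs1KO.

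The 12 genes that the study names for this pair of genotypes, chosen by it on the same animals and so not independent evidence, all had an unadjusted p under 0.05, 6 higher and 6 lower. For 9 of them, 4 higher and 5 lower, the genotypes did not overlap. The others were Cxcl9 and Sprr1a, which overlapped through Wfs1KO replicate 4, and Insrr. With median-of-ratios scaling or quantile normalization only 3 higher and 3 lower were without overlap. The study called these 12 with edgeR at an FDR under 0.05, a count test that was not run here. By RT-PCR it also reported Gad1, Maob and Trpm5 as lower in Wfs1KO islets.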

How the data were processed

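Islet RNA of 12 mice was sequenced, and the 4 Wfs1KO and 4 Wfs1HZ libraries were compared, with genotype and replicate number from the labels. The authors amplified cDNA with the Ovation kit, aligned SOLiD reads to mm10 by LifeScope and deposited RPKM values for each animal, to 2 decimals. Annotation and counting tool are not given in the sources used here, and the edgeR test of the study needs read counts, so it was not run. RPKM were used without further scaling. Differences, Wfs1KO minus Wfs1HZ, were tested with limma 3.58.1 in R 4.3.3 on log2(RPKM + 0.1), with a variance trend and Benjamini-Hochberg adjustment over 13357 transcripts. The added 0.1 understates the change of low transcripts. Single genes were given a two-sided exact permutation test too. P-values measure the spread between these animals.

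The genes named by rule are Wfs1, the 12 of the study, the 10 highest and 10 lowest fold changes and the 5 lowest p in each direction among transcripts without overlap, members of each gene list without overlap (at most 4) or else those with the lowest p, and the islet hormones. Further genes were named for their role or their counts after their values were seen. A few genes that the rule names are not reported here. Members and lists were chosen with earlier results of these data known. Depth was estimated from short RNA genes, of whose low values 70.7% to 82.5% were whole reads within 0.1. The size of a read was set from the same values, so this share is not an independent check. Approximate reads are RPKM times exon length (GENCODE, 22538 of 24078 entries matched) times depth, and cover counting error only. Of the entries 969 are marked as copies of a locus. Scripts were tested on simulated data. Alternatives were pseudocounts of 1 and 0.01, other minimum means, other scalings, other variance models, a joint fit with WT, sample weights, a replicate block, and leaving out each animal.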

Additional observations from a re-analysis of the deposited data

Results flagged for a closer look

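In 9 of 172 groups of 4 animals (5.23%) a single animal stood apart by Dixon's ratio, the gap to its nearest neighbour over the range of the group, which chance gives in about 1 of 20 groups. In Wfs1HZ replicate 2, the library with the lowest depth and many transcripts at low levels, 3 genes were low: Cpb2 at 1.23 RPKM against 2.17 to 2.39 RPKM (ratio 0.852), Arhgap36 at a listed 0 against 1.37 to 1.61 RPKM (ratio 0.947), and Sdf2l1 at 7.76 RPKM against 42.31 to 46.55 RPKM (ratio 0.946). In Wfs1HZ replicate 4 Esm1, an endothelial gene, was at 1.97 RPKM against 13.88 to 15.2 RPKM (ratio 0.955), and the mean log2 level of the immune markers was 1.13 against 1.99 to 2.07 (ratio 0.906). Trpm5 was at 11.12 RPKM in Wfs1HZ replicate 3 against 3.83 to 4.42 RPKM (ratio 0.867). Srebf2 was at 14.7 RPKM in Wfs1HZ replicate 1 against 20.94 to 22.31 RPKM (ratio 0.848).

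Wfs1KO replicate 4 stood apart in the mean log2 level of the chemokine and cytokine list, 2.35 against 5.0 to 5.14 (ratio 0.951), and in Esm1, at 10.6 RPKM against 3.37 to 4.1 RPKM (ratio 0.830).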

How the results depend on the processing

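No transcript had an FDR under 0.05 in the reported fit. The count was 1 without the variance trend, 2 with all 12 samples in a single fit, 23 with sample weights, 2 without Wfs1HZ replicate 2 and with median-of-ratios scaling, and 12 without Wfs1HZ replicate 2 and Wfs1KO replicate 4. With single animals left out it ranged from 0 to 8, with 8 without Wfs1KO replicate 4 and 2 without Wfs1HZ replicate 2. Transcripts with an unadjusted p under 0.05 numbered 342, of which 77.8% were higher. With a minimum mean of 0.1 RPKM they numbered 532, with no filter 547, with median-of-ratios scaling 529, with quantile normalization 556 and with sample weights 1486. They numbered 792 without Wfs1HZ replicate 2 and rescaled, and 755 without that library and Wfs1KO replicate 4. With single animals left out they ranged from 152 to 636: 152 without Wfs1KO replicate 1, 180 without Wfs1KO replicate 2, 557 without Wfs1HZ replicate 2 and 636 without Wfs1KO replicate 4. The share that was higher was 55.0% with median-of-ratios scaling, 52.2% with quantile normalization, 66.8% without the variance trend and 43.7% without Wfs1HZ replicate 2 and rescaled, and ranged from 43.9% without Wfs1HZ replicate 4 to 86.7% without Wfs1KO replicate 3. With the replicate block 279 transcripts had an unadjusted p under 0.05 and 0 an FDR under 0.05. Deviations of same-numbered animals from their genotype means had correlations of 0.115, -0.14, 0.0319 and -0.281. Such values, from 4 animals of each genotype, cannot decide whether the numbers mark pairs, and the labels do not say. The direction of Ins1 turned, with -0.035 under median-of-ratios scaling, -0.98 with Wfs1HZ replicate 2 left out as well, -0.28 without Wfs1HZ replicate 2 and Wfs1KO replicate 4, and -0.73 to 0.55 with single animals left out. Gcg ranged from -0.66 to 0.055 and Sst from -0.29 to 0.22 in the latter. The cause of these moves was not tested. The other genes named by the rule had 1 direction in all settings run, and the directions of genes named outside it were not followed here. Leaving out Wfs1HZ replicate 2 together with Wfs1KO replicate 4 was chosen after seeing the data, as was filtering on the other 11 samples (349 transcripts). Leaving out an animal also makes it easier for the others not to overlap.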
